A study of Mus musculus with 6 samples.

Results

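DAP12 and Fc receptor signalling genes were examined in C2C12 cells, a line of mouse myoblasts whose cells fuse into myotubes in low serum. The 9 genes, of 23231 with counts in any library, were listed by name for their roles as adaptors (*Tyrobp*, which encodes DAP12, and *Fcer1g*, which encodes the Fc receptor gamma chain), receptors (*Trem2*, *Fcgr1*, *Fcgr3*, *Fcgr4* and *Fcgr2b*) and kinases (*Lyn* and *Syk*). The list was written with earlier results of these data known, but no measured value entered the rule. All 9 had counts in each of the 6 libraries.

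The study asked what silencing of an enhancer near *Myog*, the gene for the myogenic factor myogenin, does to differentiating C2C12 cells. Both groups were transduced at a multiplicity of infection of 100 with a lentivirus for dCas9-KRAB, a nuclease-dead Cas9 that carries a repressor domain, and were selected with 2 µg/ml puromycin. The dCas9-KRAB group (3 libraries) carried no sgRNA against the enhancer, and the dCas9-KRAB-En5 group (3 libraries) also carried a pair of sgRNAs that bring the repressor to the Myog-En5 enhancer. Cells had been grown in 10% fetal bovine serum, and polyadenylated RNA was sequenced on day 5 in 2% horse serum. Both groups are selected pools that express the repressor from the ubiquitin C promoter of the vector. Cells without virus were not analysed here.

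DAP12 and the Fc receptor gamma chain are small membrane adaptors with an immunoreceptor tyrosine-based activation motif (ITAM) in their cytoplasmic tails. Receptors that bind a ligand but cannot signal alone pair with them: *Trem2* with DAP12, and the activating Fc gamma receptors, which bind IgG, with the gamma chain. Src family kinases such as *Lyn* phosphorylate the ITAM, *Syk* docks on it and passes the signal on, and the inhibitory receptor *Fcgr2b* opposes it. The genes are best known from macrophages, mast cells, natural killer cells and other blood cells.

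The stretches before the start sites of *Fcgr1*, *Fcgr3* and *Syk* are shown because these were the 3 genes whose TPM did not overlap between the groups. They are the 150 bases before a RefSeq start, 5′ to 3′ on the strand of the gene (build GRCm38.p6), at chr3:96293970-96294119 (minus strand) for *Fcgr1*, chr1:171059404-171059553 (minus strand) for *Fcgr3* and chr13:52596732-52596881 (plus strand) for the downstream start of *Syk*. Capitals mark GAGGAA on either strand, the core bound by the macrophage factor PU.1, and TTCNNNGAA, the gamma-activated site of STAT factors.
Fcgr1: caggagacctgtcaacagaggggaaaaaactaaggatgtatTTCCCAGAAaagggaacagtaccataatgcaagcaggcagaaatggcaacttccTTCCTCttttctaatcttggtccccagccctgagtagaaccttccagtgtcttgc
Fcgr3: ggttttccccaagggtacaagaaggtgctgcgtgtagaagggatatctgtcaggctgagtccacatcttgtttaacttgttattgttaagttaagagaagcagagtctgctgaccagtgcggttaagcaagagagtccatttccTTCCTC
Syk: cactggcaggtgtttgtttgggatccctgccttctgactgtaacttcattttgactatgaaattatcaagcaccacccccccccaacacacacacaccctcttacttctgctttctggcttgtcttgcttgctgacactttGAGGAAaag
Both motifs were searched on both strands in the whole RefSeq windows, from 250 bases before to 50 bases after the start, and the matches do not overlap each other. GAGGAA was in 28.3% and TTCNNNGAA in 8.3% of all 32851 windows. Of the 9 genes, 7 had entries, and GAGGAA was found for *Fcgr1* (its first base at -55), *Fcgr3* (-6 from the start shown and -15 from its other start), *Fcgr4* (-22), *Trem2* (-40) and *Syk* (-9) but not in the windows of *Fcer1g* and *Fcgr2b* or at the upstream start of *Syk*. The window of *Fcgr1* also held TTCNNNGAA, at -109. A match of letters is a description and not a binding site.

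Several features of the libraries moved with the groups. Total counts ran from 40554323 to 73988425 in dCas9-KRAB and from 31831093 to 40384720 in dCas9-KRAB-En5, and 3 counts, taken as the floor, correspond to 0.0405 to 0.0942 CPM (counts scaled to a common library total, counting error only). The library of dCas9-KRAB-En5 replicate 3 listed 13991 genes, against 17084 to 19395 in the others. *Myog* had 43211, 68488 and 74845 counts in dCas9-KRAB and 12, 0 and 0 in dCas9-KRAB-En5. The samples are labelled as myoblasts, and 14 myoblast and myotube markers summed to 3965 to 9530 TPM (transcript levels, made from counts by scaling for gene length and library) in dCas9-KRAB but to 17.6 to 43.7 TPM in dCas9-KRAB-En5, where *Myod1* had 3, 1 and 0 counts (1705, 7697 and 6598 in dCas9-KRAB). The 20 macrophage markers summed to 5946 to 6923 TPM in dCas9-KRAB and to 13997 to 21030 TPM in dCas9-KRAB-En5. Much of this was *Lyz2*, and the other 19 summed to 2108, 4050 and 3514 TPM in dCas9-KRAB and to 7820, 7059 and 3023 TPM in dCas9-KRAB-En5, where the groups overlapped. Of the 20, 10 reached 10 TPM in every library, *Mrc1* was at 0 in all, and 1 of the 16 tested, *Adgre1*, rose (edgeR, adjusted p = 0.00706). Of all 14378 genes tested, edgeR called 1.52% higher. DESeq2 called 3 of the 16 higher, against 5.88% of its 16436 genes. The TPM of *Lyz2*, *Cd68*, *Itgb2* and *Adgre1* were higher and those of *Mpeg1*, *Aif1* and *C1qc* lower in every dCas9-KRAB-En5 library than in any dCas9-KRAB library. Among all genes tested, 7.76% were higher and 19.7% lower in this way. Of 8 natural killer cell markers 7 were at 0 in all libraries (among them *Ncr1* and *Prf1*). At 0 in all were also 2 of 8 B cell markers (among them *Ms4a1*) and 4 of 8 T cell markers (among them *Cd3e*). So were 3 of 8 mast cell markers (*Kit*, *Cma1* and *Tpsb2*). The rest of these lists had counts: mast cell markers summed to 21.3 to 22.6 TPM in dCas9-KRAB and T cell markers to 6.94 to 18.5 TPM in dCas9-KRAB-En5. The part of macrophage RNA, or of any other cell type, in the results was not tested. In these bulk libraries fewer cells of a type and less RNA per cell cannot be told apart.

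None of the 9 genes was called, and the 2 adaptor genes stood far above their receptors and kinases in both groups. Values of *Fcgr1* were lower and those of *Fcgr3* and *Syk* higher in every dCas9-KRAB-En5 library than in any dCas9-KRAB library, by 3.57-fold, 2.75-fold and 4.03-fold in edgeR's estimates. On the mean TPM of the 6 libraries the order was *Tyrobp* (1620), *Fcer1g* (751), *Fcgr1* (90.4), *Trem2* (87.5), *Fcgr3* (46.8), *Lyn* (29.9), *Syk* (18.7), *Fcgr4* (11.9) and *Fcgr2b* (6.93). The lowest value of *Tyrobp* was above the highest of *Fcer1g*, and the lowest of *Fcer1g* above the highest of any receptor or kinase. From *Fcgr1* down, the ranges of all neighbours in this order overlapped.

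**Figure D1:**
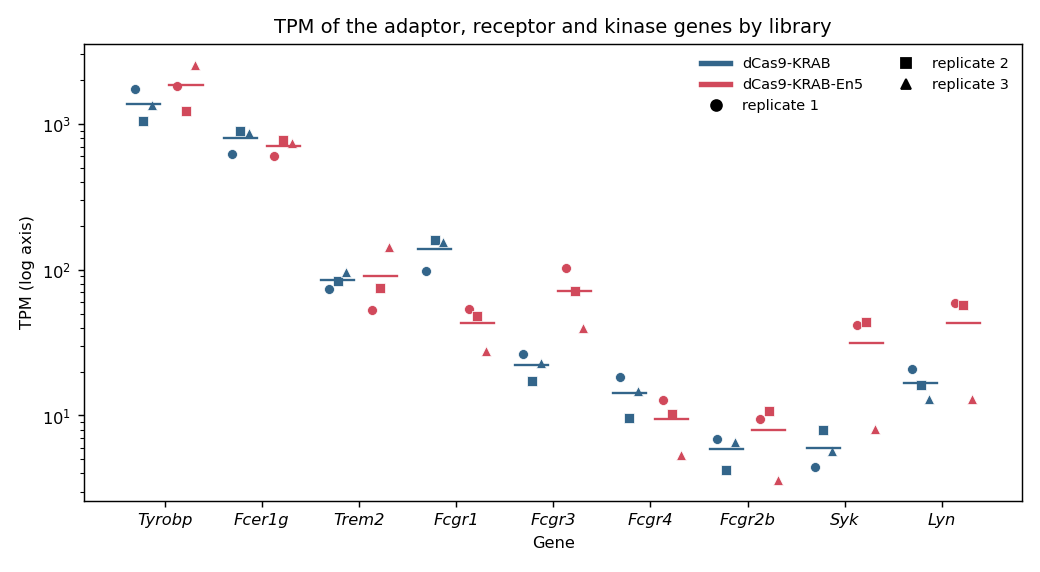
TPM (log axis) of the 9 genes in the 6 libraries, in dCas9-KRAB (blue) and dCas9-KRAB-En5 (red). Marker shapes give the replicate number and horizontal lines the mean of 3 libraries. *Fcgr1* is lower and *Fcgr3* and *Syk* are higher in dCas9-KRAB-En5 without overlap, and dCas9-KRAB-En5 replicate 3 (8.10 TPM) lies just above dCas9-KRAB replicate 2 (7.93 TPM) for *Syk*.

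Counts were compared with edgeR's quasi-likelihood test, and calls needed a Benjamini-Hochberg adjusted p of at most 0.01 with a log2 fold change of at least 1 in size. None of the 9 was called by edgeR (0 lower, 0 higher), whereas 4.67% of the 14378 genes tested were called lower and 1.52% higher. At an unadjusted p under 0.05 were 4 of the 9 (*Fcgr1*, *Fcgr3*, *Syk* and *Lyn*), as were 4733 of all genes tested. Limma on the TPM also called 0 of the 9. DESeq2 called 2, *Fcgr1* lower and *Syk* higher, against 8.66% of its 16436 genes lower and 5.88% higher. In the fit that blocks on the replicate number, edgeR called 0 of the 9, where 6.79% of all genes were lower and 3.94% higher. The TPM of the groups did not overlap for 1 of the 9 in the lower direction, against 19.7% of all genes tested, and for 2 in the higher direction, against 7.76%. Among 9 genes, counts of 1 and 2 say little about the list as a whole. The median log2 fold change was 0.32 over the 9 genes and 0.08 over all genes tested.

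**Figure D2:**
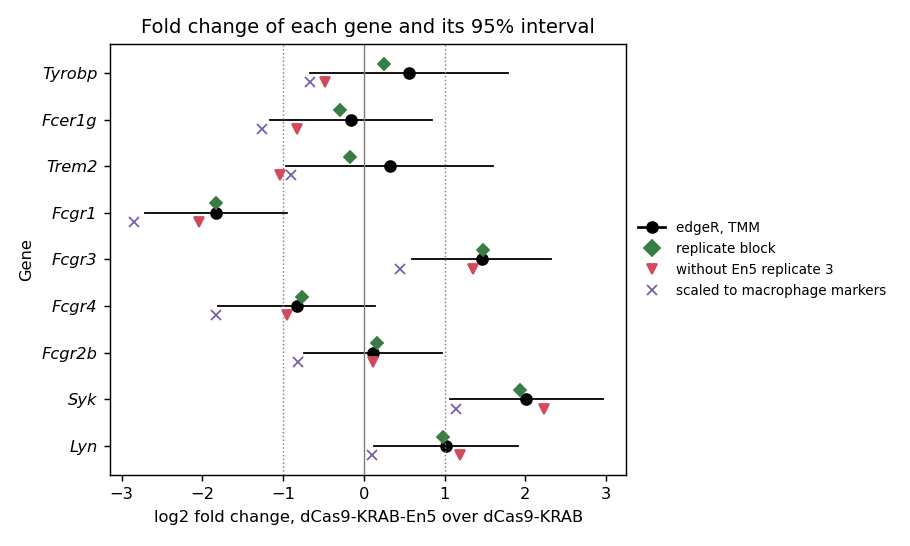
The log2 fold change of each gene, dCas9-KRAB-En5 over dCas9-KRAB, from edgeR (black points, with bars of 1.96 standard errors to each side), beside the values with the replicate block (green), without dCas9-KRAB-En5 replicate 3 (red) and with libraries scaled to macrophage markers (purple). Dotted lines mark the cutoff of 1. The bars of *Fcgr1*, *Fcgr3*, *Syk* and *Lyn* do not reach 0, and scaling to macrophage markers moves every gene to the left.

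*Tyrobp* had 1727, 1048 and 1358 TPM in dCas9-KRAB replicates 1 to 3 and 1818, 1221 and 2547 TPM in dCas9-KRAB-En5 replicates 1 to 3. The groups overlapped, with the highest value in dCas9-KRAB-En5 replicate 3. In edgeR the log2 fold change was 0.56 (SE 0.63, edgeR's quasi-likelihood test, adjusted p = 0.569), and without dCas9-KRAB-En5 replicate 3 it was -0.48. *Fcer1g* was the steadiest of the 9, with 623, 891 and 871 TPM in dCas9-KRAB and 606, 777 and 739 TPM in dCas9-KRAB-En5. Its highest value was 1.47 times its lowest over all libraries. The log2 fold change of *Fcer1g* was -0.16 (SE 0.51, edgeR, adjusted p = 0.855), and the interval of 1.96 standard errors, from -1.17 to 0.84, includes changes of either sign.

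The 2 adaptors were also compared with each other within each library, where scaling between libraries drops out. The ratio of *Tyrobp* to *Fcer1g* was 2.77, 1.18 and 1.56 in dCas9-KRAB and 3.002, 1.57 and 3.45 in dCas9-KRAB-En5. Its log2 mean was 0.78 ± 0.63 (SD, n = 3) against 1.34 ± 0.60 (SD, n = 3), a difference of 0.56 (exact permutation test, two-sided, p = 0.2, adjusted p = 0.2 over the 2 ratios tested). With 3 libraries against 3 the smallest p this test can give is 0.1.

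*Trem2*, a receptor for lipids and lipoproteins that signals through DAP12, had 73.4, 83.3 and 96.6 TPM in dCas9-KRAB and 52.7, 75.5 and 144 TPM in dCas9-KRAB-En5. The dCas9-KRAB-En5 values lay on both sides of the dCas9-KRAB values. This gave a log2 fold change of 0.32 (SE 0.65, edgeR, adjusted p = 0.766), and its sign was not stable: it was -1.04 without dCas9-KRAB-En5 replicate 3 and -0.17 with the replicate block.

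*Fcgr1* encodes the high-affinity IgG receptor. Its TPM were 97.3, 161 and 154 in dCas9-KRAB and 53.6, 48.0 and 27.9 in dCas9-KRAB-En5, so each of the dCas9-KRAB-En5 libraries was below all of the others. The log2 fold change was -1.84 (SE 0.45, edgeR, adjusted p = 0.0178), past the cutoff of size but not that of the adjusted p. DESeq2 gave -1.87 (adjusted p = 0.000868) and called the gene. Without dCas9-KRAB-En5 replicate 3 the log2 fold change in edgeR was -2.05 (adjusted p = 0.0023). Scaled to macrophage markers it was -2.85 (edgeR, adjusted p = 0.00047), but that scaling moved the median of all genes from 0.08 to -0.89. Over all settings tried the log2 fold change of *Fcgr1* stayed negative.

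*Fcgr3* encodes a low-affinity activating IgG receptor. It had 26.4, 17.1 and 22.9 TPM in dCas9-KRAB and 103, 71.9 and 40.0 TPM in dCas9-KRAB-En5, with every dCas9-KRAB-En5 library above every dCas9-KRAB library. Its log2 fold change was 1.46 (SE 0.44, edgeR, adjusted p = 0.0416). It was 1.35 without dCas9-KRAB-En5 replicate 3 and 0.44 after scaling to macrophage markers. Of the 50-base words in its exons 9.58% also occur in *Fcgr2b*, where counting could split reads between the genes.

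*Fcgr4*, another activating IgG receptor, had 18.4, 9.64 and 14.8 TPM in dCas9-KRAB and 12.7, 10.3 and 5.39 TPM in dCas9-KRAB-En5, with a log2 fold change of -0.83 (SE 0.50, edgeR, adjusted p = 0.269). *Fcgr2b*, the inhibitory IgG receptor, had 6.94, 4.25 and 6.59 TPM in dCas9-KRAB and 9.47, 10.7 and 3.61 TPM in dCas9-KRAB-En5. Both genes overlapped between the groups, and dCas9-KRAB-En5 replicate 3 held the lowest value of each. The log2 fold change of *Fcgr2b* was 0.11 (SE 0.43, edgeR, adjusted p = 0.882). In *Fcgr2b*, 6.95% of the 50-base words are shared with *Fcgr3* or other genes, and 155 exon bases overlap *Gm38204* on the opposite strand, whose reads could be counted with it because the strand setting is not given.

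Within the summed TPM of the 4 Fc gamma receptor genes, the leading gene differed between the groups. *Fcgr1* held 65.3%, 83.9% and 77.7% of the sum in dCas9-KRAB and 30.0%, 34.1% and 36.3% in dCas9-KRAB-En5. *Fcgr3* held 17.7%, 8.92% and 11.5% in dCas9-KRAB and 57.6%, 51.0% and 52.0% in dCas9-KRAB-En5. Thus *Fcgr1* led in all dCas9-KRAB libraries and *Fcgr3* in all dCas9-KRAB-En5 libraries. *Fcgr4* held 5.02% to 12.3% in dCas9-KRAB and 7.02% to 7.30% in dCas9-KRAB-En5, and *Fcgr2b* 2.21% to 4.66% and 4.69% to 7.60%. The sum itself was 149, 192 and 199 TPM in dCas9-KRAB and 179, 141 and 76.9 TPM in dCas9-KRAB-En5, and the groups overlapped. These shares are a description with no test, since they restate the TPM above.

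**Figure D3:**
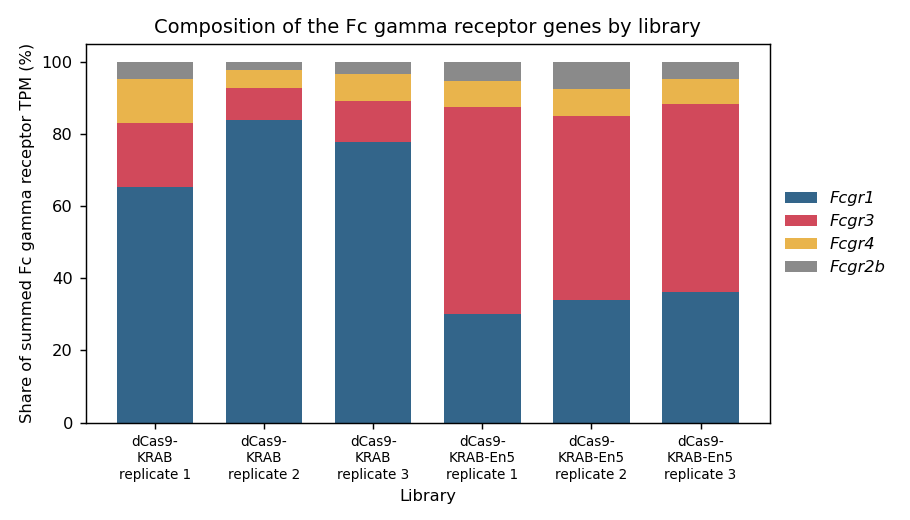
Share (%) of each Fc gamma receptor gene in the summed TPM of the 4 genes, 1 bar a library. *Fcgr1* makes up 65.3% to 83.9% of the bars of dCas9-KRAB and 30.0% to 36.3% of those of dCas9-KRAB-En5, and *Fcgr3* 8.92% to 17.7% and 51.0% to 57.6%.

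The ratio of the inhibitory *Fcgr2b* to the activating *Fcgr3* was compared in the same way as that of the adaptors. It was 0.263, 0.248 and 0.288 in dCas9-KRAB and 0.0922, 0.149 and 0.0903 in dCas9-KRAB-En5, and the groups did not overlap. The log2 mean was -1.91 ± 0.11 (SD, n = 3) against -3.22 ± 0.41 (SD, n = 3), a difference of -1.31 (two-sided p = 0.1 by exact permutation, which is the smallest possible, adjusted p = 0.2). The shared words of the 2 genes bear on this ratio.

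*Fcgr2b*, *Fcgr4*, *Fcgr3* and *Fcer1g* lie within 276 kb of each other on chromosome 1 (GRCm38), at 170958617-170976547, 171018920-171029761, 171051174-171064935 and 171229572-171234365. *Myog* is on the same chromosome, 36.7 Mb from the nearest of them. These 4 neighbours had log2 fold changes of 0.11, -0.83, 1.46 and -0.16 (edgeR, adjusted p = 0.882, 0.269, 0.0416 and 0.855). None was called, so the signs do not show that neighbours changed in different directions. The others lie apart, *Tyrobp* at chr7:30413760-30417585, *Trem2* at chr17:48346401-48354147, *Fcgr1* at chr3:96282909-96293969, *Syk* at chr13:52583173-52648792 and *Lyn* at chr4:3678115-3813122.

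*Syk*, the kinase that docks on phosphorylated ITAMs, had the largest fold change of the 9 in edgeR. It had 4.44, 7.93 and 5.73 TPM in dCas9-KRAB and 42.0, 43.8 and 8.10 TPM in dCas9-KRAB-En5. Replicates 1 and 2 of dCas9-KRAB-En5 were far above all other libraries, while replicate 3 was only just above the highest dCas9-KRAB value, and the highest of the 3 was 5.41 times the lowest. For *Syk* the log2 fold change was 2.01 (SE 0.48, edgeR, adjusted p = 0.0164). DESeq2 gave 1.94 (adjusted p = 0.00111) and called the gene, as did edgeR without dCas9-KRAB-En5 replicate 3 (2.23, adjusted p = 0.000896). Scaled to macrophage markers it was 1.14 (adjusted p = 0.145).

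*Lyn*, the Src family kinase upstream of *Syk*, had 20.7, 16.2 and 12.9 TPM in dCas9-KRAB and 59.3, 57.4 and 12.9 TPM in dCas9-KRAB-En5. Replicates 1 and 2 of dCas9-KRAB-En5 were above every dCas9-KRAB library and replicate 3 was level with the lowest of them, so the groups overlapped. For *Lyn* it was 1.01 on the log2 scale (SE 0.46, edgeR, adjusted p = 0.145), and it was 0.10 after scaling to macrophage markers. In *Lyn*, 18.3% of the 50-base words are shared with *Gm11787* or *Gm26857*, and 248 exon bases overlap *Gm26857* on the opposite strand.

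Replicate 3 of dCas9-KRAB-En5 thus differed from replicates 1 and 2 in opposite ways for different members. It held the highest dCas9-KRAB-En5 value of *Tyrobp* and *Trem2* and the lowest of *Fcgr1*, *Fcgr3*, *Fcgr4*, *Fcgr2b*, *Syk* and *Lyn*. Relative to *Tyrobp* in the same library, *Syk* was at 2.31%, 3.59% and 0.318% in dCas9-KRAB-En5 replicates 1 to 3, against 0.257% to 0.756% in dCas9-KRAB. *Fcgr3* was at 5.65%, 5.89% and 1.57% of *Tyrobp*, against 1.53% to 1.68% in dCas9-KRAB. On this scale replicate 3 lay within the dCas9-KRAB range for both genes. *Fcgr1* was at 2.95%, 3.93% and 1.10% of *Tyrobp* in dCas9-KRAB-En5, all below the 5.64% to 15.4% in dCas9-KRAB.

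The other genes of the pathway were taken from 5 lists by role, 104 genes in all, of which 92 had counts in any library and 79 were tested. Of the 79, 3 were called lower and 7 higher, where edgeR called 4.67% of all genes lower and 1.52% higher. The median log2 fold change of the 79 was 0.60, against 0.08 over all genes tested. At an unadjusted p under 0.05 in edgeR were 43 of the 79, as were 4733 of all 14378 genes tested. With libraries scaled to the macrophage markers 8 were lower and 2 higher (5 of them among the 10 above). Of all 14378 genes, that scaling called 2132 lower and 93 higher. With *Lyz2* left out of the scaling, an alternative chosen after seeing the data, 5 were lower and 3 higher, against 1018 and 88 of all genes. These 2 scalings moved the median log2 fold change of all genes from 0.08 to -0.89 and -0.62. With the replicate block 5 were lower and 10 higher, against 6.79% and 3.94% of all genes. DESeq2 called 7 lower and 16 higher, against 8.66% and 5.88% of its 16436 genes. Leaving out dCas9-KRAB-En5 replicate 3 raised the 10 calls to 29, and leaving out 1 of the dCas9-KRAB libraries reduced them to 0 (without replicate 1) or 1 (without replicate 2 or 3).

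The list of other receptors that pair with DAP12 or the gamma chain also holds relatives of such receptors and other adaptors. Of its 25 genes 15 were tested, 2 fell and 3 rose, against 4.67% and 1.52% of all genes in edgeR. Whether each listed gene pairs with either adaptor was not examined. *Siglech*, a receptor of the Siglec family that signals through DAP12, had 338, 264 and 456 counts in dCas9-KRAB and 0 in every dCas9-KRAB-En5 library. It was at least 65.2-fold lower against the floor of 3 counts in 1 library (edgeR, adjusted p = 0.00032). *Treml2*, a receptor of the TREM family, fell from 1.44, 1.59 and 1.40 TPM to 0.038, 0.16 and 0 TPM (log2 fold change -4.99, SE 0.94, edgeR, adjusted p = 0.00531). *Clec4d*, a C-type lectin that works with the gamma chain, rose from 16.5, 7.95 and 9.97 TPM to 215, 82.5 and 104 TPM (log2 fold change 3.43, SE 0.59, edgeR, adjusted p = 0.00322). Its partner *Clec4e*, which binds mycobacterial glycolipids and was named here after its values were seen, rose by 3.07 on the log2 scale (edgeR, adjusted p = 0.00759). *Cd300ld* rose from 6.70, 4.19 and 4.46 TPM to 43.5, 35.8 and 12.8 TPM (log2 fold change 2.28, SE 0.46, edgeR, adjusted p = 0.00732). The partner receptors *Cd300lb* and *Trem3*, the next most abundant, had log2 fold changes of 1.37 (adjusted p = 0.0626) and 1.02 (adjusted p = 0.116) in edgeR and were not called.

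None of the 4 other Fc receptors tested, of 13, was called by edgeR. At an unadjusted p under 0.05 in edgeR was 1 of them, as were 4733 of all 14378 genes. DESeq2 called 1 lower, against 8.66% of all its genes. The neonatal Fc receptor *Fcgrt* had 30.9 to 53.8 TPM in dCas9-KRAB and 29.2 to 35.5 TPM in dCas9-KRAB-En5. *Fcrl1* had 3.17 to 5.46 and 2.76 to 6.18 TPM, and both genes overlapped between the groups. *Trim21*, a cytosolic antibody receptor, had 1.55 to 2.04 TPM in dCas9-KRAB and 0.094 to 0.78 TPM in dCas9-KRAB-En5 (log2 fold change -2.28, SE 0.66, edgeR, adjusted p = 0.0349).

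Among other kinases of the Src and *Syk* families and their partners 11 of 13 were tested, and 1 fell. At an unadjusted p under 0.05 in edgeR were 5, as were 4733 of all 14378 genes. DESeq2 called 3 lower and 1 higher, against 8.66% and 5.88% of all its genes. With the replicate block 2 were lower, against 6.79%. *Src*, named here after its values were seen, was not called in edgeR (log2 fold change -3.00, adjusted p = 0.0102) but was called lower in DESeq2 (adjusted p = 7.78e-05). *Zap70*, the *Syk* family kinase of T cells, had 25, 71 and 72 counts in dCas9-KRAB and 0 in every dCas9-KRAB-En5 library, at least 9.37-fold lower against the floor (edgeR, adjusted p = 0.00759, and 0.0108 with the replicate block, where it was not called). *Ptk2b* had 10.3, 19.5 and 16.0 TPM in dCas9-KRAB and 57.2, 79.1 and 23.4 TPM in dCas9-KRAB-En5 (log2 fold change 1.53, edgeR, adjusted p = 0.0355). *Csk*, which switches Src family kinases off, had a log2 fold change of 0.016 (edgeR, adjusted p = 0.988). *Syk* and *Zap70*, of the same family, thus had values on opposite sides of 0. *Syk* was not called in edgeR and *Zap70* had at most 0.634 TPM in any library, so the signs do not show opposite changes.

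Downstream of the kinases 30 of 32 genes were tested, and 3 rose (8 in DESeq2), against 1.52% of all genes in edgeR and 5.88% in DESeq2. At an unadjusted p under 0.05 in edgeR were 17 of the 30, as were 4733 of all 14378 genes. *Fyb*, an adaptor, rose from 2.16, 4.6 and 1.58 TPM to 44.9, 49.7 and 6.61 TPM (log2 fold change 3.23, SE 0.58, edgeR, adjusted p = 0.00406). *Pik3r5*, a regulatory subunit of phosphoinositide 3-kinase gamma, rose from 1.45, 7.30 and 4.77 TPM to 47.6, 76.7 and 18.8 TPM (adjusted p = 0.00496, edgeR). *Gab2*, a scaffold that recruits phosphoinositide 3-kinase, rose from 2.05, 4.25 and 1.66 TPM to 24.5, 41.6 and 5.19 TPM (adjusted p = 0.00644, edgeR). In all 3 genes dCas9-KRAB-En5 replicate 3 held the lowest value of its group, as for *Syk* and *Lyn*. The abundant *Rac2*, *Vav1* and *Lat2* had log2 fold changes of 0.64, 1.11 and 0.52 in edgeR and were not called.

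Of the negative regulators 19 of 21 were tested, and 1 rose, against 1.52% of all genes. In DESeq2 4 rose and 1 fell, against 5.88% and 8.66% of all its genes. At an unadjusted p under 0.05 in edgeR were 12 of the 19, as were 4733 of all 14378 genes. *Lilrb4a*, an inhibitory receptor, rose from 0.11, 0.17 and 0.15 TPM to 20.2, 13.6 and 0.26 TPM (log2 fold change 5.78, SE 1.04, edgeR, adjusted p = 0.00406), with replicates 1 and 2 of dCas9-KRAB-En5 carrying nearly all of it. The phosphatase gene *Ptpn6* and the adaptor genes *Dok3* and *Dok1* had log2 fold changes of -0.052, 0.63 and 0.30 in edgeR and were not called.

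**Figure D4:**
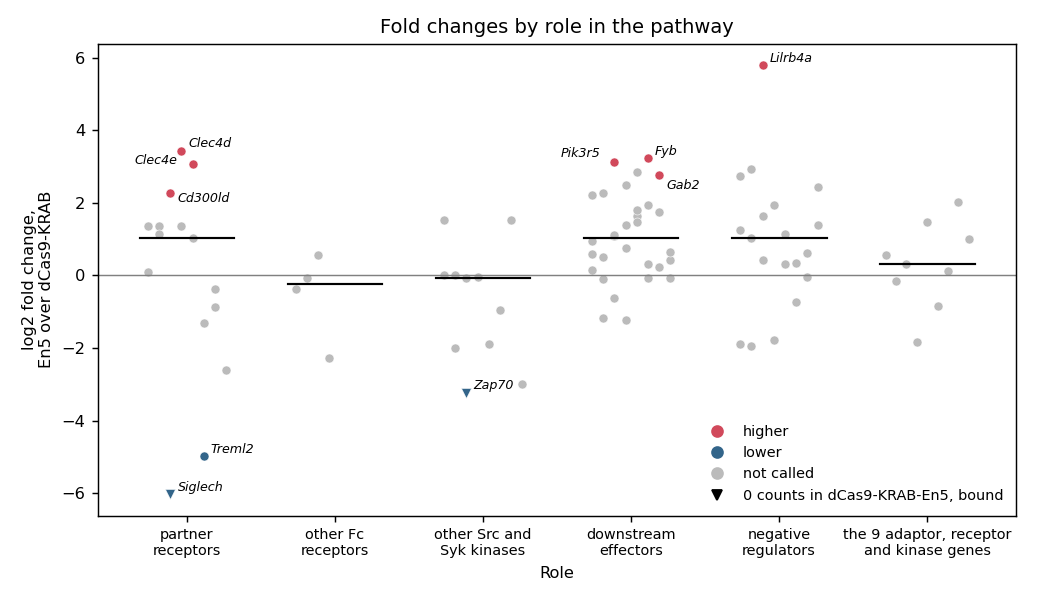
The log2 fold change (dCas9-KRAB-En5 over dCas9-KRAB, edgeR) of each tested gene by role in the pathway, with the 9 genes on the right. Horizontal lines are medians, named points are called genes, and triangles are genes with 0 counts in dCas9-KRAB-En5, drawn at the bound that 3 counts allow. The partner receptors, downstream genes and negative regulators have medians of 1.02, 1.02 and 1.03, the other Fc receptors -0.23, the other kinases -0.06 and the 9 genes 0.32.

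The pattern of *Tyrobp* over the 6 libraries was set beside that of every tested gene with a mean of at least 10 CPM. Likeness was the SD of the log2 ratio of the TPM to that of *Tyrobp* over the 6 libraries, so it asks for a constant ratio. Of 7596 genes ranked, the closest outside the 9 were *Gm8129* (SD 0.079), *Mcee* (0.11), *Rps27* (0.11), *Rpl38-ps2* (0.11) and *Rps16* (0.12). Its partners in signalling stood further off. *Trem2* ranked 340 (SD 0.54), *Fcer1g* 580 (0.63), *Fcgr2b* 1554, *Fcgr3* 2153, *Lyn* 3984, *Fcgr1* 5264 and *Syk* 6075, and *Fcgr4* was below the limit on counts.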

How the data were processed

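Libraries of polyadenylated RNA were sequenced from C2C12 cells on day 5, 3 of dCas9-KRAB and 3 of dCas9-KRAB-En5, grouped by the sample labels. Per the labels the authors aligned reads with HISAT2 2.2.1 to GRCm38 and assigned them with featureCounts. The deposited counts are raw counts per gene, and the deposited TPM are those counts scaled by gene length and library. The annotation release and strand setting are not given in the sources used here. The implied gene lengths lay within 1% of the GENCODE exon length for 98.6% of 12906 genes and for all 9 genes reported. Genes that a file does not list were set to 0.

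Counts were fitted in edgeR 4.0.16 (R 4.3.3) after TMM normalization and filterByExpr (at least 10 counts, total of at least 15), by the quasi-likelihood test with condition alone, and Benjamini-Hochberg adjustment over 14378 genes. Calls required an adjusted p no higher than 0.01 and a log2 fold change of 1 or more in size. The standard error was the fold change over the root of F. Ratios of TPM were tested by exact permutation over the libraries. Folds against 0 counts used a floor of 3 counts in the smallest library. Alternatives were limma 3.58.1 on TPM with pseudocounts of 1 or 0.1 before log2, DESeq2 1.42.0, other scalings and filters, and leaving out each replicate.

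The 9 genes, the 5 pathway lists and the marker lists were chosen with earlier results of these data known. The genes named were the 9, up to 4 called genes with the smallest adjusted p and the 3 with the highest mean TPM in each pathway list, the 5 closest to *Tyrobp*, and *Myog* and *Myod1* with the marker lists. A gene that this rule names is not reported here. Separate cultures are not stated, so p-values measure the spread between these libraries, which may be technical. Same-numbered replicates deviated together from their group means (correlations across genes of 0.262, 0.214 and 0.290, against -0.340 to -0.0508 between differently numbered ones). Deviations from a mean cancel out within a group, so positive values in some pairs make others negative on average. The contrast was not tested. The labels do not say that a number marks a shared batch, and the replicate number was also fitted as a block.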

Additional observations from a re-analysis of the deposited data

How the results depend on the processing

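The number of genes called, 890, was 2390 with DESeq2, 586 with total counts as library sizes, 2225 with libraries scaled to macrophage markers, 2198 with no filter on low counts, 544 with at least 10 counts in every library, 1543 with the replicate block, 2449 at an adjusted p of at most 0.05, 514 with limma on log2(TPM + 1) and 709 with limma on log2(TPM + 0.1). Leaving out each replicate gave 222 to 3921 genes, the most without dCas9-KRAB-En5 replicate 3. The share of higher genes among the calls was 24.6%, and 40.5%, 11.9%, 4.18%, 45.7%, 37.7%, 36.7%, 43.7%, 6.23% and 9.31% under these settings in the same order. Scaling to macrophage markers moved the median log2 fold change of all genes from 0.08 to -0.89. With *Lyz2* left out of those markers, which was chosen after seeing the data, it was -0.62, and 1106 genes were called (7.96% higher).

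Of the 9 genes, 2 were called with DESeq2 (*Fcgr1* and *Syk*), 1 with scaling to macrophage markers with or without *Lyz2* (*Fcgr1*), 2 with no filter (*Fcgr1* and *Syk*), 3 at an adjusted p of at most 0.05 (*Fcgr1*, *Fcgr3* and *Syk*), and 0 to 2 when a replicate was left out, the 2 being *Fcgr1* and *Syk* without dCas9-KRAB-En5 replicate 3. Of the 79 tested pathway genes, where 10 were called, there were 23 with DESeq2, 3 with total counts, 21 with no filter, 25 at an adjusted p of at most 0.05, 3 with limma on log2(TPM + 1), 4 with limma on log2(TPM + 0.1), 10 with scaling to macrophage markers (8 lower, 2 higher), and 0 to 29 when a replicate was left out. The paired fit with the replicate block called 0 of the 9 and 15 of the pathway genes, and it no longer called *Zap70*. Among the markers, that fit called *Bst2* lower (log2 fold change -2.59, edgeR's quasi-likelihood test, adjusted p = 0.00146). It called 2 macrophage markers higher, *Adgre1* and *Itgam*, and also 2 osteoclast markers higher and 2 fibroblast markers lower.

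The sign turned for *Tyrobp* (0.56) to -0.67 and for *Fcgr2b* (0.11) to -0.82 with scaling to macrophage markers, and to -0.20 and -0.64 with *Lyz2* left out of them. For *Trem2* (0.32) it turned to -0.91 with that scaling (-0.31 with *Lyz2* left out), -0.17 with the replicate block, -0.014 with limma on log2(TPM + 1) and -0.015 with limma on log2(TPM + 0.1). When a replicate was left out, log2 fold changes ran from -0.48 to 0.95 for *Tyrobp*, -0.83 to 0.086 for *Fcer1g*, -0.15 to 0.21 for *Fcgr2b* and -1.04 to 0.72 for *Trem2*, and kept 1 sign for *Fcgr1* (-2.06 to -1.69), *Fcgr3* (1.23 to 1.64), *Fcgr4* (-1.12 to -0.63), *Syk* (1.79 to 2.23) and *Lyn* (0.79 to 1.19). Of 162 values of the 9 genes under the alternatives, 148 kept the direction and 11 became calls. The looser adjusted p cutoff of 0.05 reuses the reported fit. Its values keep their direction by construction, and its 3 calls come from the cutoff alone. The log2 differences of the ratios ran from -1.54 to -1.18 (*Fcgr2b* to *Fcgr3*) and from 0.29 to 0.90 (*Tyrobp* to *Fcer1g*), and in pairs of replicates each had an exact p of 0.25 by permutation of signs, the smallest that 3 pairs allow. The causes of these shifts were not tested.

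With 3 libraries a group, the exact tests cannot pass a threshold of 0.05, and the adjusted p of *Fcgr1* and *Syk* reached 0.112 and 0.109 when a replicate was left out. Depth differed between the groups, and its part was not tested.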

Other observations

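Cell types other than macrophages, only some of which use these adaptors and receptors, were looked at through their marker lists. Values are summed TPM and calls by edgeR's quasi-likelihood test. Mast cell markers summed to 21.3 to 22.6 TPM in dCas9-KRAB and to 1.31 to 3.22 TPM in dCas9-KRAB-En5. Most of this was *Tpsab1*, a tryptase gene, at 14.8 to 19.7 TPM in dCas9-KRAB and 0.068 to 0.23 TPM in dCas9-KRAB-En5, the 1 mast cell marker called lower (adjusted p = 0.00032). Markers of osteoclasts, whose formation involves DAP12, summed to 3.82 to 6.13 TPM in dCas9-KRAB and to 9.57 to 39.8 TPM in dCas9-KRAB-En5. *Acp5*, the acid phosphatase of osteoclasts and macrophages, was called higher (1.74, 0.51 and 0.98 TPM against 18.8, 10.5 and 4.24 TPM, adjusted p = 0.00959), while *Calcr* was at 0 in all libraries. Dendritic cell markers summed to 3419 to 4118 TPM in dCas9-KRAB and to 616 to 821 TPM in dCas9-KRAB-En5, nearly all of it *Bst2*, an interferon-induced gene that many cells express, with *Clec9a* and *Cd209a* at 0 in all libraries. Of that list *Ccr7* was called higher (adjusted p = 0.00779), and *Bst2* was not called (log2 fold change -2.41, adjusted p = 0.0150). Neutrophil markers summed to 10.6 to 22.2 TPM in dCas9-KRAB and 8.99 to 16.7 TPM in dCas9-KRAB-En5, T cell markers to 4.63 to 10.4 and 6.94 to 18.5 TPM, B cell markers to 0.558 to 1.77 and 0.150 to 0.438 TPM (*Pax5* called lower, adjusted p = 0.00821), and natural killer cell markers to at most 0.0284 TPM in any library. Fibroblast markers summed to 70.3 to 206 TPM in dCas9-KRAB and 20.9 to 39.2 TPM in dCas9-KRAB-En5, and of these *Col1a1* was called lower (log2 fold change -3.65, adjusted p = 0.0062).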
